A study of Mus musculus with 80 samples.

Results

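The genes described here code for the eukaryotic translation initiation factors (Eif symbols) and elongation factors (Eef symbols) and for the kinases and binding proteins that bear the same symbols. They were taken by name, as every row whose symbol starts with Eif or Eef followed by a digit. The rule itself used no measured value, but it was set with earlier results of these data known. Only genes with reads above 5 throughout 1 or more of the groups were listed. The rule gave 59 of the 15919 genes in the sort table and 60 of the 16000 genes in the cell preparation table. The same 59 genes were in both tables, and the 1 further gene, Eif4e1b, was only in the second. Eif2s3y, Eif3j1 and Eif3j2 belong to the same complexes but were not analysed here.

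All libraries came from brains of Cx3cr1-NuTRAP mice (genotype label Cx3cr1(Jung)-cre/Ert2+;NuTRAP+), in which tamoxifen activates an eGFP tag on the ribosomes of cells that express Cx3cr1, in the brain mainly microglia. Every mouse received tamoxifen intraperitoneally at 100 mg/kg daily at about 3 months of age and was harvested between 5 and 8 months, so genotype and tamoxifen were shared by all groups and no group without the tag entered a comparison. Each preparation gave an Input library, which is RNA of the lysate before pull-down, and a TRAP library, which is RNA pulled down with the tagged ribosomes by an antibody to GFP from the same lysate. In the sort comparison (48 libraries) whole tissue (Tissue), a suspension made with papain and mechanical force partly at 37°C (Cell) and cells from 4 sorts were compared. The sorts were autoMACS (magnetic beads to CD11b), Tyto (cartridge sorting for CD11b, CD45 and eGFP), FACSAria (cytometer sorting for the same 3 labels) and autoMACS to Tyto (both in turn). In the cell preparation comparison (32 libraries) Tissue was set beside a cold mechanical Dounce homogenate cleaned on Percoll, and beside Cell suspensions made without (-) and with (+) the transcription inhibitors actinomycin D and triptolide and the translation inhibitor anisomycin. Each group held 4 libraries, other than Tyto with 5 and autoMACS to Tyto with 3 in each fraction. The 16 sorted libraries of a fraction came from 10 mice, since 3 mice gave both autoMACS and autoMACS to Tyto libraries and 3 gave both Tyto and FACSAria libraries, so tests that count the sorted libraries as separate samples give p-values that are too small, and results that moved when each mouse was counted once are given beside their values. The suspensions and sorts were made at the bench before lysis, and all lysates held the elongation inhibitor cycloheximide.

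Translation of most mRNAs begins when the eIF4 factors bind the cap and unwind the leader, the 40S subunit arrives with eIF3 and with initiator tRNA on eIF2, and eIF1, eIF1A and eIF5 act in choosing the start codon before eIF5B joins the 60S subunit. The eEF1 factors then deliver aminoacyl-tRNA to the ribosome and eEF2 moves it along the mRNA. The cell slows these steps mainly through the eIF2 kinases (Eif2ak1 to Eif2ak4), through the 4E-binding proteins (Eif4ebp1 to Eif4ebp3), which hold the cap-binding protein eIF4E when mTOR is inactive, and through the eEF2 kinase (Eef2k). Several factors have a paralog of neurons and muscle, of which eEF1A2 in place of eEF1A1 is the best known, and the mRNAs of many factors begin with a 5′ terminal oligopyrimidine (TOP) tract, through which mTOR controls their loading on ribosomes.

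In mm10 Eef1a2 lies at chr2:181147692-181157015 and Eef1a1 at chr9:78478454-78481724, both on the minus strand, Eif4ebp1 at chr8:27260327-27275656 and Eef2k at chr7:120842831-120907219, both on the plus strand, and Eif2ak2 at chr17:78852550-78882572 on the minus strand.

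The reference sequence around the RefSeq start is printed for the genes of the TOP list that had a start in the table, because that list carries the comparison of TRAP with Input below. The list held 9 members (Eef1a1, Eef1b2, Eef1d, Eef1g, Eef2, Eif3e, Eif3f, Eif3h and Eif4b), and 5 were matched by symbol. Each window holds 15 bases before and 15 bases from the start onwards, on the strand of the gene, in GRCm38.p6, with its longest run of C or T in capitals.
Eef1a1 (chr9:78481710-78481739, minus strand): gctggctccgCCCTCTTCCCgagggtgggg
Eef1b2 (chr1:63176816-63176845, plus strand): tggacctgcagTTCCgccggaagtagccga
Eef2 (chr10:81176616-81176645, plus strand): tataaaaggCCgggcgttgacgtcagcggt
Eif3f (chr7:108934400-108934429, plus strand): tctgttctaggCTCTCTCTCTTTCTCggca
Eif4b (chr15:102073758-102073787, plus strand): ggTCTTCCCgtcggacgccgcgccaccccc
A run of 7 or more C or T bases stood in 3 of these 5 windows and in 18.6% of the windows of all 32851 starts, where the median longest run was 4. The run was 15 bases in Eif3f, 10 in Eef1a1 and 7 in Eif4b, and a shorter run says only that a longer one was not within these 30 bases. In Eif3f and Eef1a1 the run covered the annotated start, whereas in Eif4b it ended before the start and so lay outside the annotated mRNA.

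The summed counts over the listed genes were 7129464 to 20168116 per library in the sort comparison and 2471448 to 14650287 in the cell preparation comparison, in which Dounce-TRAP was lowest (2471448 to 4724538). Levels are given as CPM (counts in every 1000000 of a library), scaled with TMM over all libraries of a table, and were compared only within a gene, since they were not corrected for length. The defining markers followed the labels. The summed level of 10 microglial markers had a median of 317 CPM in Tissue-Input, 5966 CPM in Cell-Input and 38967 to 42934 CPM in the sorted Inputs, while that of 9 neuronal markers fell from 6426 CPM through 717 CPM to between 13.99 and 23.8 CPM. In TRAP the microglial sum was already 7588 CPM in Tissue, 38192 CPM in Cell and 46193 to 48635 CPM after the sorts, and the neuronal sum was 6171, 154 and 4.47 to 6.45 CPM. Replicate 3 of autoMACS-Input stood apart, with a median correlation of 0.961 with the other libraries of its group.

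The first comparison asks how the factors changed as tissue was dissociated and microglia were purified, read in total RNA. Between Tissue-Input and Cell-Input the neuronal elongation factor Eef1a2 fell 8.05-fold, while the translational brakes Eif4ebp1 (6.44-fold), Eif4ebp2 (4.97-fold), Eif2ak2 (3.22-fold) and Eef2k (2.91-fold) rose. A gene was called where the quasi-likelihood test of edgeR gave a false discovery rate (FDR) under 0.1 and the fold change exceeded 2. By this rule 5 members were higher and 1 was lower, against 28.5% and 17.5% of all 15750 genes tested. At FDR under 0.1 with any fold, 13 were higher and 22 lower (42.7% and 32.4% of all genes), and the median log2 fold change was -0.05 over the members and 0.17 over all genes. Of the 6 members called, 4 were regulators, and the other calls were Eef1a2 and the scaffold Eif4g2.

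Eef1a2 was at 1303, 1268, 1318 and 1266 CPM in the 4 Tissue-Input libraries and at 184, 174, 84.2 and 157 CPM in Cell-Input. The sorted Input libraries had 1.03 CPM at the lowest, 3.45 at the median and 7.45 at the highest. The 3 stages did not overlap. The log2 fold change was -3.01 ± 0.28 (SE) from Tissue to Cell (adjusted p = 1.85e-09) and -5.77 ± 0.21 from Cell to the mean of the sorts (54.5-fold lower, adjusted p = 1.63e-17). Over the same stages the 9 neuronal markers fell together with Eef1a2, all 9 of them at both steps, and in bulk RNA fewer cells of a type cannot be told apart from less RNA per cell.

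Its paralog Eef1a1, the eEF1A of most cells, went the other way. It was at 1349, 1352, 1272 and 1273 CPM in Tissue-Input, at 2308, 2353, 2185 and 2426 CPM in Cell-Input, and between 3433 and 6281 CPM (median 4811) in the sorted Inputs. Each stage lay above the one before it, and the log2 fold changes were 0.92 ± 0.12 (SE, adjusted p = 6.35e-07) and 0.83, both under the 2-fold limit of a call.

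**Figure D1:**
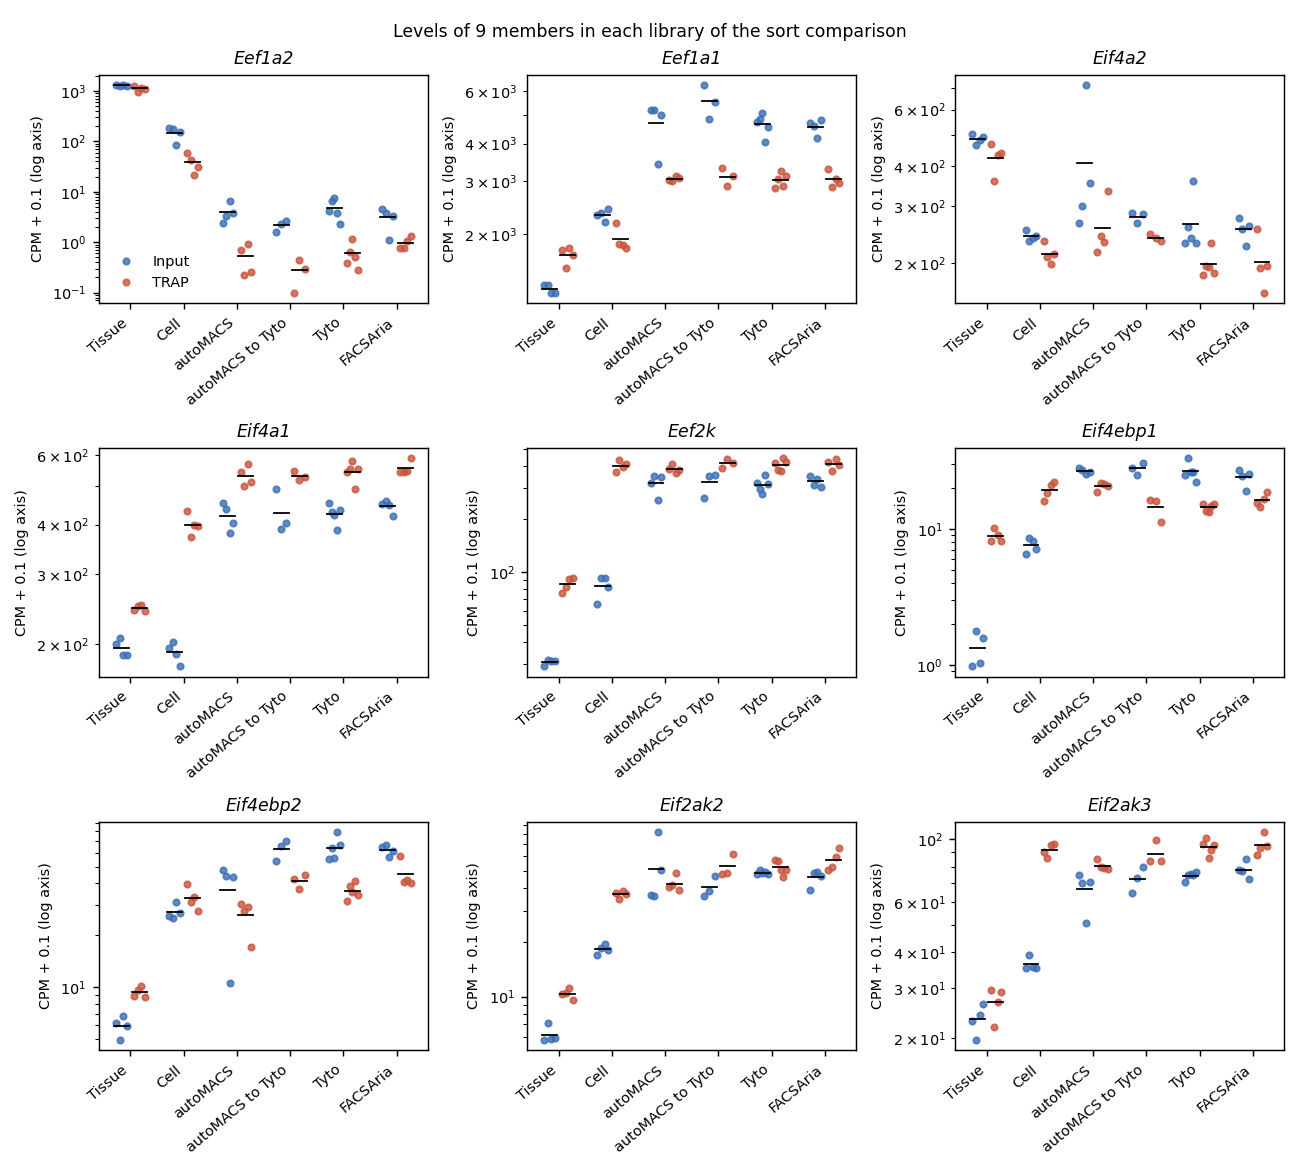
Level of 9 members in each library of the sort comparison, as CPM plus 0.1 on a log axis, with Input in blue, TRAP in red and a bar at the mean of each group. Eef1a2 falls from 1266 CPM or more in Tissue-Input to 7.45 CPM or less in the sorted Inputs while Eef1a1 rises, and Eef2k in TRAP is at its sorted level already in Cell.

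The ratio of paralogs within a library does not depend on how libraries are scaled, so 5 pairs were followed as log2 ratios of counts, with a two-sided exact permutation test and Benjamini-Hochberg adjustment over 30 tests. With 4 libraries on each side the smallest possible p is 0.0286 (0.0571 after adjustment here), so the Tissue to Cell step could not pass 0.05 for any pair. Eef1a2 over Eef1a1 went from a mean of -0.03 ± 0.06 (SD) in Tissue-Input to -4.01 ± 0.47 in Cell-Input, with no overlap (exact permutation p = 0.0286), and to -10.52 ± 0.83 over the 16 sorted Inputs (adjusted exact permutation p = 0.00206 against Cell, and 0.00999 with 1 mean ratio for each of the 10 mice). In TRAP the same ratio was -0.60 ± 0.10, -5.74 ± 0.53 and -12.87 ± 1.37, the last step with an adjusted exact permutation p of 0.00206 over libraries and 0.00999 over mice. In the sorted TRAP libraries Eef1a2 was at 0 to 1.23 CPM. The size of the ratio there thus depends in part on depth and on the 0.5 added to each count.

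The helicase pair followed. Eif4a2 over Eif4a1 was 1.32 ± 0.10 (SD) in Tissue-Input, 0.35 ± 0.11 in Cell-Input and -0.58 ± 0.47 in the sorted Inputs (adjusted exact permutation p = 0.0186 for the last step over libraries and 0.0571 over mice, with overlapping ranges). In TRAP it was 0.78 ± 0.18, -0.90 ± 0.07 and -1.31 ± 0.29, and the last step missed the threshold (adjusted exact permutation p = 0.0571). Eif5a2 over Eif5a, the paralogs that carry hypusine, fell by 1.06 from Cell-Input to the sorted Inputs (adjusted exact permutation p = 0.00206 over libraries and 0.00999 over mice), but differed by 0.07 between Cell-TRAP and the sorted TRAP libraries (adjusted exact permutation p = 0.791). The scaffold pair Eif4g3 over Eif4g1 and the start-codon pair Eif1b over Eif1 shifted by -0.61 and -0.65 between Tissue-Input and Cell-Input without overlap, and by -0.01 and -0.05 between Cell-Input and the sorts, where the ranges overlapped. Paralogs such as Eef1a1 and Eef1a2 or Eif4a1 and Eif4a2, and their pseudogenes, share sequence, and how reads that match both were counted is not given in the sources used here.

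**Figure D2:**
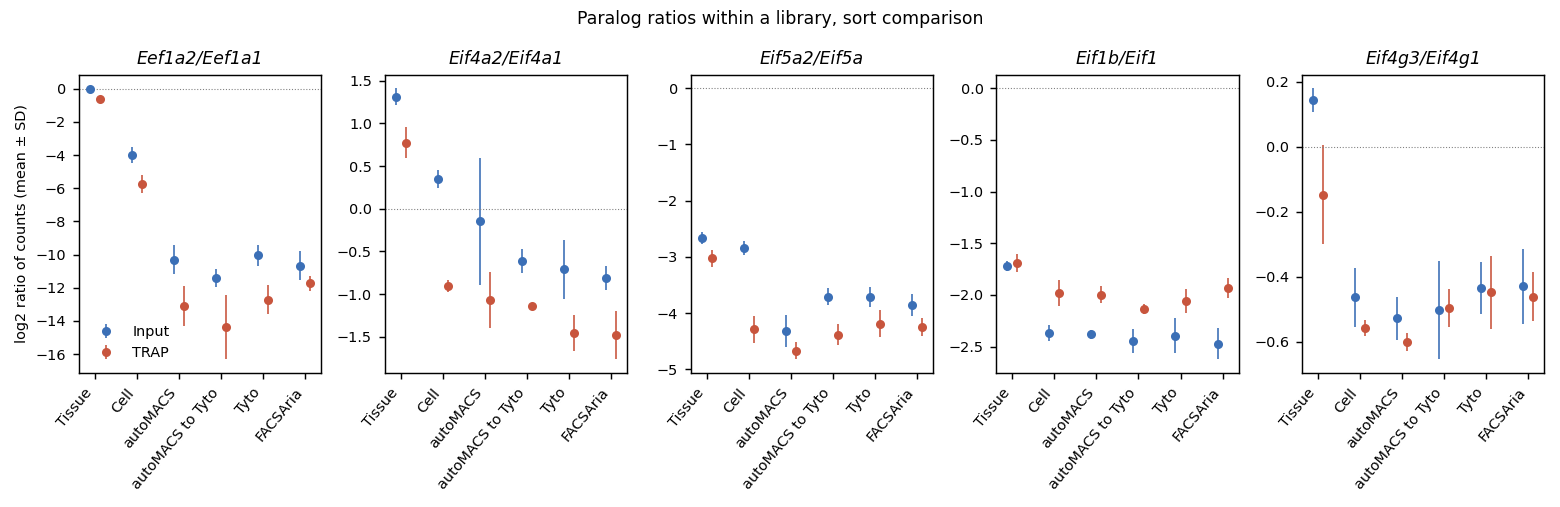
Log2 ratio of the counts of 5 paralog pairs within a library (mean ± SD of each group) for Input in blue and TRAP in red over the 6 preparations of the sort comparison. Eef1a2 over Eef1a1 drops from -0.03 in Tissue-Input to -4.01 in Cell-Input and on in every sort, whereas Eif4g3 over Eif4g1 stays level after the Cell stage.

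Among the roles, the regulators held most of the calls in Input. Of the 9, 6 were higher and 1 lower in Cell-Input than in Tissue-Input at FDR under 0.1 (42.7% and 32.4% of all genes), with 4 called, all higher (28.5%). All 9 were higher in the sorts than in Cell-Input (39.6% of all genes), with 3 called (17.1%). Under other scalings and filters 6 to 9 of them passed at that second step and none was lower, although Eif2ak1 stood at -0.01 on the deposited log2 values. Eif4ebp1 was near the limit of detection in Tissue-Input at 0.878, 1.68, 0.927 and 1.48 CPM, reached 6.44, 8.44, 8.14 and 7.10 CPM in Cell-Input, and lay between 19.1 and 33.1 CPM (median 26.2) in the sorted Inputs. No library of a later stage overlapped an earlier stage, and the log2 fold changes were 2.69 ± 0.19 (SE, adjusted p = 9.83e-12) and 1.57 ± 0.14 (adjusted p = 2.12e-10). Eef2k, the kinase that halts eEF2, was at 28.9, 31.2, 31.1 and 30.8 CPM in Tissue-Input, at 65.6, 92.0, 92.1 and 81.97 CPM in Cell-Input, and between 255 and 358 CPM (median 321) in the sorted Inputs. Its stages did not overlap either, with log2 fold changes of 1.54 ± 0.13 (adjusted p = 4.59e-10) and 1.72 ± 0.11 (adjusted p = 1.53e-12).

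Eif2ak2 (PKR), the eIF2 kinase that binds double-stranded RNA and is induced by interferon, was at 5.66, 6.995, 5.70 and 5.79 CPM in Tissue-Input and at 16.8, 18.4, 19.6 and 17.9 CPM in Cell-Input. It lay between 36.2 and 81.95 CPM in the sorts, where the highest was replicate 3 of autoMACS-Input. The log2 fold changes were 1.69 ± 0.17 (SE, adjusted p = 6.48e-09) and 1.11 ± 0.14 (adjusted p = 7.59e-08), of which the second fell under 2-fold with DESeq2 size factors (0.91), with a stricter filter that kept genes of 10 or more counts in every library (0.80) and limma (0.76). Eif2ak3 (PERK), the eIF2 kinase of the endoplasmic reticulum, passed the FDR at both steps with smaller changes of 0.74 and 0.77, and Eif2ak4 (GCN2), which senses uncharged tRNA, with 0.25 and 0.65. Eif2ak1 (HRI), the heme-regulated kinase, was the 1 regulator that was lower at the first step at FDR under 0.1 (-0.48). Eif4ebp3, at low levels, was also lower in every Cell-Input library than in any Tissue-Input library, but it did not pass that FDR. The early-response list (Fos, Jun and 6 others) rose over the same stages, from a median sum of 374 CPM in Tissue-Input to 3711 CPM in Cell-Input and 21160 to 23801 CPM in the sorted Inputs, and its part in these changes was not tested here.

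Among the other factors, Eif4g2 (DAP5), a scaffold without a cap-binding arm, was called higher in Cell-Input (1.06 ± 0.10 SE, adjusted p = 3.54e-09), but fell short of the 2-fold limit with DESeq2 size factors (0.97), limma (0.91) and a fit of these groups alone (0.92, with or without the animal as a block). Its levels were 390 to 430 CPM in Tissue-Input and 706 to 854 CPM in Cell-Input. Eif4a2 (-0.91 ± 0.18, adjusted p = 0.000146), Eif1b (-0.69), Eif5a2 (-0.66), Eif4g3 (-0.59) and Eif5a (-0.49) fell without reaching 2-fold. From Cell-Input to the sorts, 4 members were called higher and 1 lower, against 17.1% and 34.7% of all genes, and 40 were higher and 5 lower at FDR under 0.1, against 39.6% and 45.3%. The cap-binding homolog Eif4e2 was the fourth call (1.07 ± 0.07, adjusted p = 2.99e-13), with 39.8 to 44.4 CPM in Cell-Input and 90.3 to 115 CPM in the sorts, and it too fell under 2-fold with DESeq2 size factors (0.86), the stricter filter (0.76) and limma (0.74). The split of higher and lower members depended on the scaling. With the size factors of DESeq2 it was 31 higher and 14 lower, with limma on the deposited log2 values 18 and 17, and with genes under 10 counts in any library left out 21 and 16. With DESeq2 size factors the median over all genes moved from -0.09 to -0.30 log2 units, whereas the member median stayed above the all-gene median.

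In the wider machinery, a list of 37 other translation genes (release and recycling factors, poly(A)-binding proteins, mTOR and MNK signalling, eIF2 phosphatase subunits), 6 were called higher and 3 lower in Cell-Input than in Tissue-Input, against 28.5% and 17.5% of all genes, and 8 higher and 2 lower in the sorts than in Cell-Input, against 17.1% and 34.7%. The eIF4E kinase Mknk1 rose at both steps (1.51 ± 0.14 and 2.21 ± 0.13 SE), as did the cytoplasmic poly(A)-binding protein Pabpc1 (1.36 and 1.05) and Ppp1r15a (GADD34), which directs the phosphatase to eIF2 (2.06 and 1.68). The release factor paralog Gspt2 fell at both steps (-1.72 ± 0.29 and -3.11 ± 0.23).

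**Figure D3:**
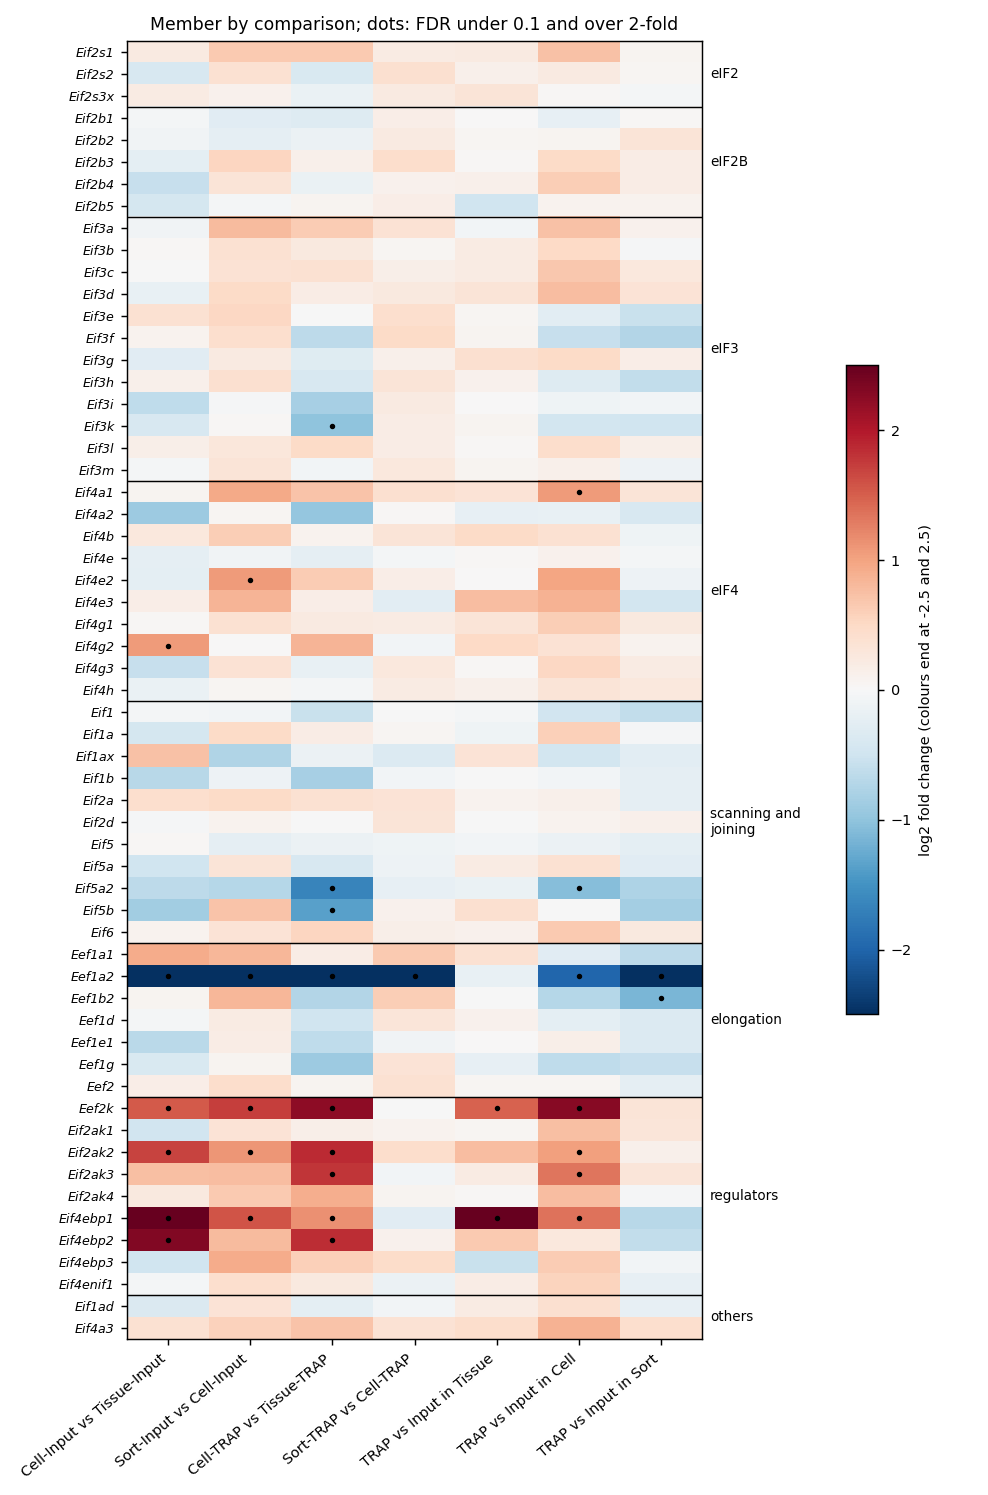
Log2 fold change of the 59 members (rows, grouped by role) in the comparisons of the sort table (columns), with dots where FDR was under 0.1 and the change over 2-fold, and colours ending at -2.5 and 2.5. The dots gather in the regulators and on Eef1a2, and rows of eIF2, eIF2B and eIF3 stay pale.

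The second comparison asks the same of RNA pulled down with the tagged ribosomes. Tissue-TRAP also held RNA of other cells, with a neuronal sum of 6171 CPM against 6426 CPM in Tissue-Input. Its levels, and the steps from Tissue to Cell, are thus not those of microglia alone. Between Tissue-TRAP and Cell-TRAP, 5 members were called higher, all of them regulators, and 4 lower, against 25.1% and 29.3% of the 14953 genes tested. At FDR under 0.1 the members divided evenly, with 24 higher and 22 lower (41.9% of all genes each way), and the medians of members and of all genes were both -0.01. The balance shifted with scaling, to 14 higher and 37 lower with DESeq2 size factors, where the all-gene median fell to -0.34, and to 11 and 42 with limma, where it fell to -0.45. In the last step, from Cell-TRAP to the sorted TRAP libraries, no member was called higher and 1, Eef1a2, was called lower (0.836% and 23.6% of all genes), while 33 were higher and 6 lower at FDR under 0.1 (23.2% and 36.7%), with a member median of 0.17 and an all-gene median of -0.05.

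Eef1a2 in TRAP was at 1282, 949, 1168 and 1107 CPM in Tissue, at 58.5, 41.8, 21.2 and 31.2 CPM in Cell, and between 0 and 1.23 CPM (median 0.474) after the sorts. The stages did not overlap, with log2 fold changes of -4.88 ± 0.24 (SE, adjusted p = 2.15e-15) and -6.48 ± 0.23 (adjusted p = 1.32e-17). Of the 9 neuronal markers, all 9 fell at both steps in TRAP as well.

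Eef2k in TRAP was at 75.7, 82.4, 90.6 and 92.0 CPM in Tissue, at 369, 431, 394 and 409 CPM in Cell, and between 364 and 442 CPM (median 409) after the sorts. Its whole rise, 2.24 ± 0.08 (SE, adjusted p = 1.3e-18), thus lay between Tissue and Cell, and the sorted range covered that of Cell. Eif2ak3 had the same form, from 29.4, 21.8, 26.7 and 29.0 CPM through 90.1, 85.7, 95.1 and 95.8 CPM to between 78.7 and 106 CPM (1.79 ± 0.09 for the first step, adjusted p = 1.06e-15). Eif4ebp1 rose at the same step, with 8.11, 10.2, 9.02 and 8.02 CPM in Tissue, 16.03, 18.3, 21.2 and 22.1 CPM in Cell (1.15 ± 0.13, adjusted p = 1.35e-08, and 0.82 with DESeq2 size factors, under 2-fold) and between 11.1 and 21.8 CPM after the sorts, a range that overlapped Cell and reached below it (-0.28 from Cell, and -0.23 without passing the test when the libraries of a mouse were summed).

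Eif2ak2 rose by 1.86 ± 0.11 (SE, adjusted p = 2.99e-14) from 9.53 to 11.03 CPM in Tissue-TRAP to 34.6 to 38.3 CPM in Cell-TRAP, and by a further 0.43 to the sorts. Eif4ebp2 rose by 1.84 ± 0.16 (adjusted p = 7.88e-11), from 8.71 to 10.1 CPM up to 27.6 to 39.4 CPM. In Cell-TRAP all 9 regulators had FDR under 0.1 and were higher (41.9% of all genes), whereas with DESeq2 size factors 6 were higher and 1 lower. Over these groups the microglial sum rose from 7588 to 38192 CPM and the early-response sum from 319 to 17725 CPM, and neither part was tested.

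The calls in the lower direction were Eif5a2 (-1.64 ± 0.15 SE, adjusted p = 2.48e-10), Eif5b, the GTPase of subunit joining (-1.37 ± 0.20, adjusted p = 7.08e-07), and Eif3k, an eIF3 subunit outside its conserved core (-1.01 ± 0.09, adjusted p = 6.2e-11). Eif5a2 was at 32.8 to 37.4 CPM in Tissue-TRAP and 9.18 to 12.8 CPM in Cell-TRAP. Eif5b was at 175, 338, 181 and 203 CPM and then at 99.0, 92.1, 69.1 and 85.5 CPM, so 1 Tissue library lay far above the other 3 but no Cell library reached any of them. From Cell to the sorts the members with the next largest changes at FDR under 0.1 were Eef1a1 (0.65 ± 0.06, adjusted p = 2.08e-10) and Eef1b2, the exchange factor of eEF1A (0.62 ± 0.08, adjusted p = 5.68e-07), and 11 of 12 eIF3 subunits were higher (median 0.23, with 8 to 12 passing and none lower under other settings). Of the 37 other translation genes, 9 were called higher and 4 lower in Cell-TRAP than in Tissue-TRAP (25.1% and 29.3% of all genes), among them Ppp1r15a (3.82 ± 0.29), Mknk1 (2.15 ± 0.07), the GCN2 partner Gcn1l1 (2.07 ± 0.08), the mTORC1 subunit Rptor (1.83 ± 0.09) and the GCN2 inhibitor Impact (-2.40 ± 0.07), but only Gspt2 was called from Cell to the sorts (-1.36 ± 0.30).

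Few of these genes differed by more than 2-fold between the sorts. In Input, 2 members were called in a test across the 4 sorts (7.42% of all genes) and 12 had FDR under 0.1 (20.3% of members and 16.9% of all genes). In TRAP no member was called by edgeR, against 4.17% of all genes, and DESeq2 and limma each called 1. There 21 had FDR under 0.1 (35.6% of members and 28.8% of all genes) and 27 an unadjusted p under 0.05. The called members in Input were Eif4ebp3 (largest difference between sorts 1.40 log2 units, adjusted p = 0.00317) and Eif5b (1.29, adjusted p = 0.0112), and both rested on replicate 3 of autoMACS-Input. Eif5b was at 738 CPM there and at 144, 158 and 240 CPM in the other 3, and Eif4ebp3 at 30.3 CPM against 9.68, 11.9 and 11.9 CPM. When 1 library at a time was left out, the number of members called ranged from 0 to 2. In the TRAP library of the same animal Eif5b was at 73.2 CPM, the lowest of its group (75.8, 83.8 and 131 CPM in the others), so the high value was not seen there. In TRAP the largest differences between sorts at FDR under 0.1 were in Eif4ebp2 (0.78, adjusted p = 0.00193), the tRNA-synthetase complex subunit Eef1e1 (0.57, adjusted p = 0.0194) and Eif4ebp1 (0.52, adjusted p = 0.00638).

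The third comparison sets TRAP against Input within a preparation, in fits that hold both fractions. In Tissue, where the tagged cells are a small part of the lysate, Eif4ebp1 (2.82 ± 0.17 SE, 7.04-fold, adjusted p = 1.88e-18) and Eef2k (1.48 ± 0.10, adjusted p = 2.37e-16) were the 2 called members, both higher in TRAP, with none called lower (9.23% and 1.87% of all 15825 genes). Every Tissue-TRAP library lay above every Tissue-Input library for both genes. At FDR under 0.1, 17 members were higher and 2 lower (24.2% and 8.39%; 12 and 5 with limma), among them the cap-binding homolog Eif4e3 (0.78 ± 0.12), Eif2ak2 (0.77) and Eif4ebp2 (0.66). All 10 microglial markers were higher in TRAP here (median 4.54) and all 10 oligodendrocyte markers lower (median -2.10). The other lists were not depleted in that way. The median neuronal sum was 6426 CPM in Tissue-Input and 6171 CPM in Tissue-TRAP. The astrocyte sum was 2989 and 4224 CPM, and the endothelial sum 66.0 and 180 CPM. Markers of other cell types thus remained in Tissue-TRAP, and the part of these lists was not tested.

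In Cell, 5 members were called higher and 2 lower (16.8% and 30.9% of all genes), and 31 were higher and 12 lower at FDR under 0.1 (38.9% and 40.7%). The members higher in TRAP were Eef2k (2.27 ± 0.10 SE, 4.83-fold, adjusted p = 9.29e-23), Eif4ebp1 (1.37 ± 0.14, adjusted p = 1.74e-11), Eif2ak3 (1.34 ± 0.09, adjusted p = 2.78e-16), Eif4a1 (1.07 ± 0.07, adjusted p = 5.69e-18) and Eif2ak2 (1.02 ± 0.14, adjusted p = 4.62e-08). Eef1a2 (-1.98 ± 0.26, adjusted p = 1.12e-08) and Eif5a2 (-1.06 ± 0.16, adjusted p = 2.52e-07) were lower. Scaling mattered: with DESeq2 size factors 18 members were higher and 26 lower (14 and 30 with limma), the all-gene median went from -0.07 to -0.48, and of the higher calls only Eef2k kept a change over 2-fold (Eif4ebp1 0.96, Eif2ak3 0.93, Eif4a1 0.66, Eif2ak2 0.61).

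After the sorts, where both fractions come from sorted cells, no member was called higher and 2 lower in TRAP (0.0758% and 18.8% of all genes). At FDR under 0.1, 19 were higher and 28 lower (22.0% and 42.5%), with a member median of -0.06 and an all-gene median of -0.19. With the libraries of each mouse summed within a fraction 24 were higher and 18 lower, with an all-gene median of -0.08, and with the animal as a block 24 and 22. Eef2k differed by 0.33 and Eif4a1 by 0.33. The called members were both elongation factors, Eef1a2 (-2.89 ± 0.31 SE, adjusted p = 1.58e-10), at levels under 7.5 CPM in Input, and Eef1b2 (-1.14 ± 0.05, adjusted p = 9.94e-22, but -0.97 and under 2-fold with the libraries of a mouse summed). Markers of other cell types were lower in TRAP here as well, with 8 of 9 neuronal markers called lower (median -2.77), 8 of 10 astrocyte (-2.89), 5 of 10 oligodendrocyte (-2.55) and 6 of 10 endothelial (-1.36), none called higher, and their part in the differences of the factors was not tested. All 7 genes listed as elongation factors, the tRNA-synthetase complex subunit Eef1e1 among them, were lower in TRAP at FDR under 0.1, with a median of -0.57.

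Eef1b2 lay between 212 and 361 CPM in the 16 sorted Inputs and between 111 and 171 CPM in the 16 sorted TRAP libraries, without overlap. In Tissue it had shown no such gap, with 140, 141, 133 and 133 CPM in Input and 149, 112, 148 and 136 CPM in TRAP (-0.01 ± 0.10 SE, adjusted p = 0.978). Cell lay between them, at 131, 133, 120 and 154 CPM in Input and 95.7, 83.2, 75.6 and 72.6 CPM in TRAP (-0.72 ± 0.10, adjusted p = 6.24e-08). Since Tissue-TRAP held RNA of other cells too, as given above, these preparations do not compare microglia alone.

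The same held over the TOP list. After the sorts all 9 of its members were lower in TRAP at FDR under 0.1, from Eef1b2 and Eif3f (-0.74 ± 0.05 SE, adjusted p = 8.15e-16) through Eef1a1 (-0.66 ± 0.05, adjusted p = 6.12e-16), Eif3h (-0.61), Eef1g (-0.57), Eif3e (-0.55) and Eef1d (-0.34) to Eef2 (-0.22) and Eif4b (-0.11). The median was -0.57 against -0.19 over all genes, and 8 of the 9 lay below the all-gene median. At FDR under 0.1, 7 of 9 were lower with the animal as a block, 8 with these groups fitted alone, 8 without the autoMACS libraries, and 7 with the libraries of a mouse summed (median -0.43 against -0.08 over all genes), with none higher. The medians of the neuronal, astrocyte, oligodendrocyte and endothelial lists given above were lower in TRAP too. In Cell 7 were lower and 1, Eif4b, higher (median -0.27 against -0.07 over all genes, and 8 lower and none higher with DESeq2 size factors), whereas in Tissue 1 was lower and 2 higher (median 0.07 against 0.03). The windows printed above do not order the members by size of change, since Eef1b2 had a run of 4 bases and the largest difference and Eif4b a run of 7 and the smallest. Both of these runs ended before the annotated start, so they say nothing of a tract at the start of the mRNA. Among the 37 other translation genes the 1 called in the sorts was Tpt1 (-1.41 ± 0.05, adjusted p = 2.34e-25), a protein often listed with the TOP mRNAs.

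**Figure D4:**
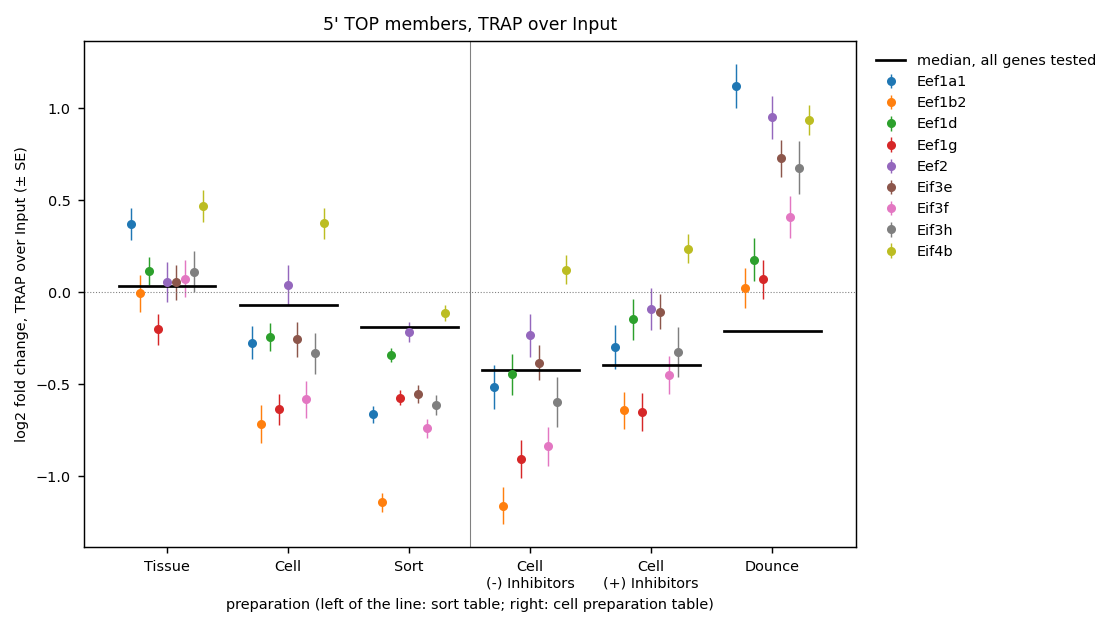
Log2 fold change of TRAP over Input (± SE) for the 9 TOP members in 3 preparations of the sort table and 3 of the cell preparation table, with a black bar at the median of all genes tested. All 9 lie under 0 after the sorts and all 9 lie above the bar in Dounce, where the median over all 60 members was 0.75.

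Whether a change from Tissue to Cell differed between the fractions was tested as an interaction. Of the members 4 were called (35.3% of all genes) and 36 had FDR under 0.1 (63.9%), 23 of them more positive in TRAP and 13 less. The change was more positive in TRAP than in Input for Eif2ak3 (1.13 ± 0.13 SE, adjusted p = 3.79e-09) and Eif4ebp3 (1.18 ± 0.36, adjusted p = 0.00546). Eif4ebp1, which rose in both fractions, rose less in TRAP (-1.45 ± 0.22, adjusted p = 5.01e-07). Eef1a2, which fell in both, fell more in TRAP (-1.78 ± 0.36, adjusted p = 5.54e-05). Eif4ebp3 was low throughout, at 4.87 to 5.78 CPM in Tissue-Input, 2.94 to 3.94 in Cell-Input, 2.57 to 4.601 in Tissue-TRAP and 3.75 to 5.92 in Cell-TRAP. Over the TOP list 7 of 9 were less positive in TRAP and none more at FDR under 0.1, against 6163 and 3956 of all 15825 genes. The median of the list was -0.43, against -0.29 over all genes, and Eef1b2 was the first of its members (-0.71 ± 0.15, adjusted p = 6.81e-05). With DESeq2 size factors Eif2ak3 (0.80) and Eif4ebp3 (0.85) fell under the 2-fold limit, and 10 members were more positive and 27 less (10 and 28 with limma), with an all-gene median of -0.61.

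The cell preparation comparison asks how much of this a cold mechanical preparation, or one with inhibitors, would avoid. The factors differed most between Tissue-Input and Dounce-Input. There 30 of 60 members were called lower and 7 higher, against 21.4% and 28.7% of the 15753 genes tested, and at FDR under 0.1, 45 were lower and 11 higher (36.6% and 42.3%). The member median was -0.98 and the all-gene median 0.10. The Dounce samples had lower RNA integrity in the study's account and used whole brains. Cell makeup differed as well. The median microglial sum was 397 CPM in Tissue-Input and 2301 CPM in Dounce-Input, and the neuronal sum was 8492.5 and 2945 CPM. Preparation, RNA quality and cell makeup thus cannot be told apart.

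By role, all 12 eIF3 subunits were lower in Dounce-Input at FDR under 0.1 (9 called, median -1.36). So were all 7 genes listed as elongation factors, Eef1e1 among them (6 called, median -1.77). All 3 eIF2 subunits (1 called, median -0.79) and 4 of 5 eIF2B subunits (3 called, median -1.07) were lower too. The list of scanning, start selection and joining, in which Eif5a, Eif5a2 and Eif6 were also placed, had 9 of 11 lower (7 called, median -1.60). Of the 10 eIF4 factors, 7 were lower and 2 higher. Eef2, which moves the ribosome along, was at 471, 389, 269 and 328 CPM in Dounce-Input against 1497, 1559, 1544 and 1535 CPM in Tissue-Input (-1.86 ± 0.14 SE, adjusted p = 5.63e-10). The eIF3 subunit Eif3f was at 40.8, 36.4, 23.9 and 33.8 CPM against 167, 161, 145 and 161 CPM (-2.01 ± 0.12, adjusted p = 2.42e-11). Neither gene overlapped. The other large decreases were in Eef1a2 (-3.00 ± 0.25), Eif5a2 (-2.45), Eif5a (-1.98), Eef1g (-1.93), Eif3k (-1.89) and the anti-association factor Eif6 (-1.87), and Eef1a1, which had risen in the enzymatic suspension, was lower as well (744, 610, 415 and 525.6 CPM against 1446 to 1550 CPM, -1.15 ± 0.15).

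Against this, 6 of 9 regulators were higher and 1, Eif2ak1, lower (42.3% and 36.6% of all genes). Eif2ak2 was at 84.1, 76.2, 112 and 107 CPM in Dounce-Input against 11.1, 12.7, 8.44 and 10.3 CPM in Tissue-Input (3.36 ± 0.18 SE, 10.3-fold, adjusted p = 6.42e-12). Eif4ebp3 was at 39.96, 45.3, 57.6 and 39.4 CPM against 6.27 to 7.06 CPM (2.95 ± 0.20, adjusted p = 8.69e-11), and Eif4e3 at 88.8, 91.9, 153 and 159 CPM against 15.4 to 20.4 CPM (2.96 ± 0.18, adjusted p = 2.1e-11). Eef2k (1.68 ± 0.12), Eif2ak4 (1.21) and Eif4e2 (1.11) were called too. Eif4ebp1 and Eif4ebp2, which had risen most in Cell-Input, showed no change past the test in Dounce-Input (-0.11 ± 0.28 and -0.26 ± 0.20). The germline-type Eif4e1b passed at 1.56 ± 0.73 (adjusted p = 0.0612) on levels of 1.26 CPM or less in every library of that table.

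**Figure D5:**
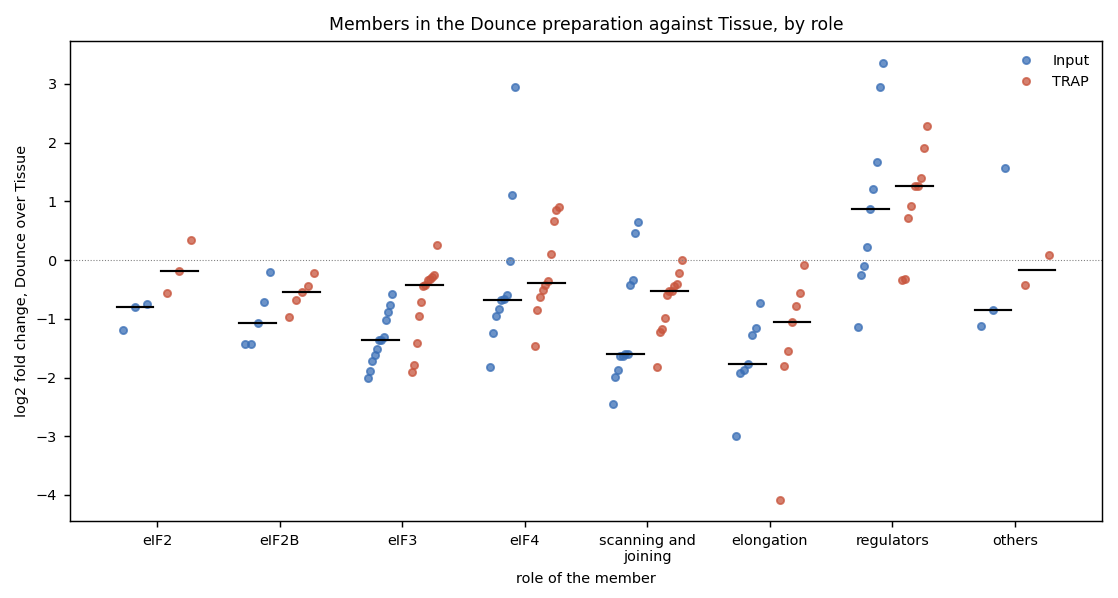
Log2 fold change of each member between Dounce and Tissue, grouped by role, for Input in blue and TRAP in red, with a bar at the median of the role. In Input every eIF3 and elongation point lies under 0 and the regulators reach 3.36, and in TRAP the eIF3 median is -0.43.

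In Dounce-TRAP the lower members again outnumbered the higher. Of 59 members tested 16 were called, 11 lower and 5 higher, against 50.3% of 14723 genes in either direction, and 50 had FDR under 0.1, 39 of them lower and 11 higher (75.1% of all genes), with a member median of -0.43 and an all-gene median of -0.06. The 5 higher calls were all regulators: Eif2ak2 (2.29 ± 0.16 SE, adjusted p = 5.68e-10), Eif4ebp3 (1.91), Eif4ebp2 (1.40), Eif2ak3 (1.26) and Eef2k (1.25). The lower ones were led by Eef1a2 (-4.08 ± 0.38), Eif3f (-1.90), Eif5a2 (-1.83), Eef1g (-1.80), Eif3k (-1.78), Eef1b2 (-1.55), Eif4a2 (-1.47) and Eif3i (-1.41). The median of eIF3 was -0.43 with 11 of 12 lower, and that of the elongation factors -1.06 with 6 of 7 lower. Of all 14723 genes, 5737 were lower and 5313 higher at FDR under 0.1. The median microglial sum was 9558 CPM in Tissue-TRAP and 41817 CPM in Dounce-TRAP, and the neuronal sum was 7595 and 1242 CPM. Their part was not tested.

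TRAP against Input in Dounce held 22 called members, 18 higher and 4 lower (47.5% of all 15894 genes in either direction), and 49 at FDR under 0.1 (40 higher and 9 lower, 73.3%). Eif4ebp1 led (2.90 ± 0.27 SE), followed by Eif4ebp2 (2.23), Eif6 (1.87), Eef1e1 (1.82), Eif4a1 (1.77), Eif3b (1.68), Eif1ax (1.57) and Eif4g2 (1.48), and Eef1a2 (-1.31), Eif4ebp3 (-1.26), Eif4e3 (-1.11) and Eif5b (-1.04) were lower. Over all genes the median was -0.21, and over the 60 members it was 0.75. Of the TOP list, 6 were higher and none lower at FDR under 0.1, against 5308 and 6338 of all 15894 genes. The median of the list was 0.68, the opposite sign to the sorts but near that of all members here. With DESeq2 size factors 5 of the TOP list were higher and 1 lower. When genes under 10 counts in any library were left out, 11 members were called in place of 22. Leaving out 1 library at a time gave 15 to 25. Eif5b lost its call with the animal as a block (-0.997). In Dounce-Input the microglial sum was 2301 CPM and the neuronal sum 2945 CPM, and in Dounce-TRAP 41817 and 1242 CPM, so the fractions differed in cell makeup here as they did in Tissue.

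Dissociation without inhibitors was set against the same Tissue libraries as Dounce. In Cell-Input (-) against Tissue-Input, 8 members were called (44.7% of all genes) and 37 had FDR under 0.1 (76.8%). Eif4ebp1 (2.04), Eif4ebp2 (1.89), Eef2k (1.41), Eif2ak2 (1.27) and Eef1a1 (1.04, or 0.99 with DESeq2 size factors) were higher and Eef1a2 (-3.91), Eef1e1 (-1.03) and Eif4a2 (-1.02) lower. In Cell-TRAP (-) against Tissue-TRAP, 10 were called (53.2% of all genes) and 40 had FDR under 0.1 (77.9%). The higher were Eef2k (1.81), Eif4ebp2 (1.71), Eif2ak2 (1.65), Eif2ak3 (1.31), Eif4ebp1 (1.15) and the largest eIF3 subunit Eif3a (1.14), and the lower Eef1a2 (-5.92 ± 0.42 SE), Eif5a2 (-1.86), Eif4a2 (-1.26) and Eif1b (-1.08). With the stricter filter Eef1e1 (-0.98) and Eif4a2 (-0.97) in Input and Eif3a (0.94) and Eif4ebp1 (0.95) in TRAP fell under 2-fold, as did Eif1b in TRAP with these groups fitted alone (-0.99). The Tissue libraries of both tables came from the same 4 mice, so the tables do not give independent references.

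No factor passed the test between the Input of suspensions made with and without inhibitors. Between Cell-Input (+) and Cell-Input (-) edgeR called no member (0.311% of all genes) and found none at FDR under 0.1 (0.381%), and 1 had an unadjusted p under 0.05. DESeq2 also called none and found 1 at FDR under 0.1. The member median was 0.00. Over the same libraries the early-response sum dropped from a median of 6012 to 362 CPM, and all 8 of its genes were called lower. Among the 37 other translation genes only Ppp1r15a was called, with log2 fold changes of -1.35 ± 0.15 (SE) in Input (adjusted p = 1.18e-05) and -3.23 ± 0.26 in TRAP (adjusted p = 1.37e-07), where the early-response sum went from 22506 to 532 CPM.

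For the regulators this meant that Eef2k stood at 104, 131, 108 and 129 CPM in Input without and at 102, 113, 108 and 145 CPM with inhibitors, against 36.9 to 42.96 CPM in Tissue-Input. Eif4ebp1 stood at 11.1, 13.6, 9.96 and 12.9 CPM without and 9.10, 11.3, 12.0 and 13.8 CPM with them, against 1.86 to 3.47 CPM in Tissue. Both suspensions lay above Tissue for both genes and overlapped each other. The microglial sum was 9108 CPM without and 9246 CPM with inhibitors, against 397 CPM in Tissue-Input. The part of this rise in the 2 genes was not tested.

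In TRAP with against without inhibitors no member was called (0.638% of all genes), and 3 were higher and none lower at FDR under 0.1 (2.11%), with 12 at an unadjusted p under 0.05. They were Eif5a (0.33 ± 0.08 SE, adjusted p = 0.0374), Eef1b2 (0.44 ± 0.11, adjusted p = 0.0636) and Eif3f (0.37 ± 0.10, adjusted p = 0.0726). Eef1b2 was at 111, 113, 97.9 and 141 CPM without and 154, 163, 148 and 163 CPM with inhibitors, and Eif5a at 223, 236, 238 and 245 CPM without and 293, 306, 277 and 300 CPM with them. Neither overlapped. Eif4ebp1 did not overlap either, at 19.4 to 24.4 CPM without and 27.5 to 30.6 CPM with inhibitors, but did not pass the test (0.45 ± 0.23, adjusted p = 0.624). The animals were shared between these groups. With the animal as a block 19 members had FDR under 0.1, 14 of them higher and 5 lower (11 in these groups alone without the block), with still no call over 2-fold. The share of all genes that passed in these fits is not given here, so these counts cannot be set against it. Eif4a2 over Eif4a1 was -0.75 ± 0.20 (SD) without and -0.30 ± 0.16 with inhibitors, without overlap (exact permutation p = 0.0286, the smallest this design gives).

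TRAP against Input within these suspensions gave 5 called members without inhibitors (47.3% of all genes, 37 and 75.8% at FDR under 0.1) and 3 with them (45.6%, 39 and 72.8%). At FDR under 0.1, 19 members were higher and 18 lower without inhibitors, and 24 and 15 with them. Fitted on these groups alone, where the all-gene medians were 0.02 and -0.01, the splits were 35 and 11, and 38 and 7. The counts called were 8 and 6 in these groups alone, with and without the animal as a block. Eef2k was higher in TRAP in both (1.64 and 1.69) and Eef1a2 lower in both (-2.58 and -2.41). Eif2ak3 (1.13), Eef1b2 (-1.16) and Eif5a2 (-1.11) were called without inhibitors, of which the last pair fell under 2-fold in these groups alone (-0.82 and -0.77, or -0.82 and -0.76 with the block), and Eif4ebp1 (1.33) with them. The TOP list had a median of -0.51 without (8 lower, none higher) and -0.30 with inhibitors (5 lower, 1 higher), against all-gene medians of -0.42 and -0.39. Of all 15894 genes, 7757 were lower and 4289 higher at FDR under 0.1 without inhibitors, and 7570 and 3993 with them. In these groups alone the all-gene medians moved up as given above, and the list's were -0.18 (4 lower, 1 higher) and 0.00 (3 lower, 4 higher), the same with the block. The interaction of inhibitors with fraction called no member in edgeR (0.145% of all genes) and found none at FDR under 0.1 (0.214%), with 7 at an unadjusted p under 0.05. A difference in the TRAP to Input ratio between the suspensions was thus not shown for any 1 member by this fit. With the animal as a block 3 members had FDR under 0.1 (1 in these groups alone), for which the share of all genes is not given here.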

How the data were processed

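Stranded, poly(A)-selected RNA-Seq libraries of 48 (sort) and 32 (cell preparation) samples were analysed from the 2 deposited tables. Per the methods of the study, the authors aligned reads to mm10 in Strand NGS, removed duplicates, quantified genes and listed only genes whose reads exceeded 5 throughout 1 or more of the groups. The deposited raw columns hold estimated counts, of which 33.4% (sort) and 21.2% (cell preparation) were whole within 1e-06. They were rounded before use. Other deposited columns hold log2 values that the authors normalized with DESeq2 and baselined. They were used only as an alternative. An earlier table with 24 of the cell preparation libraries was not used. All per-sample columns were tied to a sample by their names. The highest correlation between libraries was 0.997 (sort) and 0.993 (cell preparation), and no library appeared to be a copy of another.

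Members and lists were chosen with earlier results of these data known. Genes were tested where 1 or more groups of the set had counts above 5 in all of their libraries. The test was the edgeR (4.0.16) quasi-likelihood test after TMM, over all genes, with Benjamini-Hochberg adjustment. Input comparisons were fitted on Input libraries, TRAP comparisons on TRAP libraries and TRAP against Input on both. Standard errors were taken from the fold change and the F value of its test. The sorts were averaged with equal weight. Across the sorts, the largest difference between any pair had to exceed 2-fold for a call. Alternatives were DESeq2 (1.42.0) size factors and its test, limma (3.58.1) on the deposited log2 columns, a stricter filter (10 counts in every sample), no filter, the groups of a comparison alone, the animal as a block, leaving out each library, and, chosen after seeing the data, thinning of the Dounce sets leaving out the autoMACS libraries, and counting each mouse of the sorts once (sorted libraries of a mouse summed, or the mean of their ratios). Paralog ratios used a pseudocount of 0.5 (alternative 5). The fits were tested on simulated data. R 4.3.3 and Python 3.11.15 were used.

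Named in the text were the called members of each comparison (up to 8 with the largest change in each direction), the 3 largest at FDR under 0.1 where fewer than 3 were called, the paralog pairs, and the regulators. Genes outside that rule, all of the other translation genes among them, were named after their values were seen. Count precision is limited by depth, and errors over libraries cover the spread between these libraries, some of which share a mouse. The animals are given by the sample labels: Tissue and Cell came from the same 4 mice, as did the suspensions without and with inhibitors, 6 of the 10 mice of the sorts gave libraries of 2 sorts, and each TRAP and Input pair came from 1 lysate. Deviations from the group means correlated within an animal with a mean r of 0.01 (Tissue and Cell Input), 0.13 (Tissue and Cell TRAP) and 0.11 to 0.37 (TRAP and Input), against -0.13 to -0.00 between animals. Sequences and positions were taken from RefSeq tables of GRCm38.p6.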

Additional observations from a re-analysis of the deposited data

Results flagged for a closer look

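In 4 cases the change from Tissue to Cell differed between Input and TRAP by more than 2-fold in the interaction term of edgeR (FDR under 0.1). On the log2 scale the difference, TRAP minus Input, was -1.78 for Eef1a2, -1.45 for Eif4ebp1, 1.13 for Eif2ak3 and 1.18 for Eif4ebp3.

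In 19 genes, all paralog-pair members, regulators and Eif2s3x, 342 groups of libraries were searched for a single library far from the others, and 33 were found by Dixon's criterion at 95%. Chance alone gives about 1 in 20 groups. In the sort table, autoMACS-Input replicate 3 was such a library for Eef1a1 (3433 CPM, low), Eif4ebp2 (10.4 CPM, low) and Eif4ebp3 (30.3 CPM, high). Among the other sorts, the libraries were Tyto-Input replicate 4 for Eif1 (297 CPM) and Eif4a2 (359 CPM), Tyto-TRAP replicate 4 for Eif4a2 (232 CPM), Tyto-Input and Tyto-TRAP replicate 2 for Eif2s3x (209 and 196 CPM), FACSAria-TRAP replicate 4 for Eif4a1 (587 CPM) and Eif5a (179 CPM), FACSAria-TRAP replicate 1 for Eif4ebp2 (57.7 CPM), FACSAria-Input replicate 1 for Eif5a (213 CPM) and autoMACS-TRAP replicate 1 for Eif5a (249 CPM). In Tissue and Cell they were Tissue-Input replicate 2 for Eif2ak2 (6.995 CPM) and Eif4ebp3 (5.78 CPM), Tissue-TRAP replicate 2 for Eif5a (242 CPM), Cell-Input replicate 2 for Eif2ak3 (39.2 CPM), Cell-Input replicate 3 for Eif5a (162 CPM), Cell-TRAP replicate 1 for Eef1a1 (2178 CPM) and Eif4g3 (260 CPM) and Cell-TRAP replicate 4 for Eif4ebp3 (3.75 CPM).

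In the cell preparation table they were Tissue-Input replicate 1 for Eif1 (494 CPM) and replicate 2 for Eif4g1 (284 CPM), Tissue-TRAP replicate 4 for Eif2ak3 (30.1 CPM), Dounce-Input replicate 1 for Eif5a2 (9.58 CPM) and replicate 4 for Eif4ebp1 (1.10 CPM), and Dounce-TRAP replicate 1 for Eif4a2 (224 CPM) and replicate 2 for Eif4g3 (274 CPM). In the suspensions they were Cell-Input (-) replicate 3 for Eif4a2 (366 CPM), Cell-TRAP (-) replicate 1 for Eef1a2 (40.2 CPM), replicate 3 for Eif4ebp2 (24.001 CPM) and replicate 4 for Eif1 (308 CPM), and Cell-TRAP (+) replicate 4 for Eif4g1 (406 CPM).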

How the results depend on the processing

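The number of members called stayed within 1.5 times the reported one under the alternatives run, other than the following. With DESeq2 size factors and with the DESeq2 test, 3 members were called between Cell-Input and the sorts (5 reported). With limma on the deposited log2 columns, 15 were called between Tissue-TRAP and Cell-TRAP (9), 7 in the interaction of preparation with fraction (4) and 1 between the sorts in TRAP (0), as with the DESeq2 test (1). With at least 10 counts in every sample, 0 were called between Cell-TRAP and the sorts (1), 1 for TRAP against Input in the sorts (2), as with the sorted libraries of each mouse summed (1), 5 for Cell-Input (-) against Tissue (8) and 11 for TRAP against Input in Dounce (22). Leaving out 1 library at a time gave 0 to 2 members between the sorts in Input, 0 without autoMACS-Input replicate 3, and 15 to 25 for TRAP against Input in Dounce.

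With the animal as a replicate block, 8 members were called for TRAP against Input in Cell (-) (5) and 6 in Cell (+) (3), as when these groups were fitted alone (8 and 6), so the block itself did not move them further. In Cell (-), Eif1b went to 0.0493 with the block and 0.0475 in those groups alone. In Cell (+), Eif1b went to 0.0579 with the block and 0.0607 alone and Eef1a1 to 0.00391 and 0.000368. Both genes were lower as reported. With the block, Eif1b (-0.10) for TRAP against Input in the sorts and Eif2ak4 (-0.39) in Dounce left FDR under 0.1, which they had kept in the same groups without it. In those groups alone, with and without the block, Eif2ak4 (0.11) in Cell-Input, Eef1a1 (0.13) and Eif2ak1 (0.087, or 0.085 with the block) in Cell-TRAP, Eif4a2 (-0.19 and -0.20) in Dounce, Eef1a1 (-0.18) in Cell (-) and Eif4a2 (-0.052 and -0.050) in Cell (+) left it too. Beside these and the calls named in the text, the block ended no other call of a named gene. Counting each mouse of the sorts once, an alternative chosen after seeing the data, gave 6 members between Cell-Input and the sorts (5), 1 in TRAP (1) and 3 paralog tests under 0.05 (4).

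Reversals of sign among the named genes were 28 of 1895 values in all. In Cell-TRAP against Tissue-TRAP, with DESeq2 size factors, the DESeq2 test, the stricter filter and limma in turn, Eef1a1 was at -0.14, -0.14, -0.17 and -0.25, Eif2ak1 at -0.18, -0.18, -0.21 and -0.29 and Eif4g1 at -0.11, -0.11, -0.14 and -0.20. In the same order Eif5a for TRAP against Input in Cell was at -0.0324, -0.0321, -0.0844 and -0.122, and Eif4g1 in the interaction at -0.0396, -0.0397, -0.0496 and -0.0816. With limma, Eif2ak1 and Eif5a were at -0.00820 and -0.00885 between Cell-Input and the sorts. The cause was not tested. Leaving out single libraries reversed 0 of 2461 values and ended 105.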

Other observations

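Among the 37 other translation genes, Dounce-Input differed from Tissue-Input in 13 called genes, 4 higher and 9 lower, against 28.7% and 21.4% of all genes. The S6 kinase Rps6kb1 (2.13), the diphthamide enzyme Dph5 (1.95), Pabpc1 (1.80) and the S6 kinase Rps6kb2 (1.78) were higher, and the hypusine enzyme Dohh (-2.76) and the ribosome rescue factor Pelo (-2.54) were among the lower (log2 fold changes, edgeR, adjusted p under the FDR threshold). In Dounce-TRAP against Tissue-TRAP 6 were called higher and 6 lower, against 50.3% of all genes in either direction.

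Eif2s3x, the X-linked gene of the gamma subunit of eIF2, lay at separate levels within several groups. It was at 91.2, 100, 143 and 138 CPM in Tissue-Input, at 114, 107, 180 and 190 CPM in Tissue-TRAP and at 108, 98.7, 153 and 152 CPM in Cell-Input, in which the same animals were high each time. The cause was not tested, and libraries were not grouped by it.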
